A study of Mus musculus with 18 samples.

Results

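The clustered sites are positions of RNA 5-methylcytosine (m5C) that were listed with another m5C position of the same strand 10 nucleotides (nt) away or less. They were chosen by their listing in a Tet2 KO and a wild type table of mouse embryonic stem cells, searched separately and then joined. No listed level was below 0.1, so the levels of these samples entered the choice. There were 278 such positions among 7870 listed in all. Of the sites of each table, 170 of 4781 were clustered in Tet2 KO and 140 of 4128 in wild type. The remaining 7592 positions are called isolated here, although many lie near another site at a longer distance. Joined by gaps of 10 nt or less, the clustered positions made 134 clusters, of which 124 held 2 positions and 10 held 3.

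The cells were cultured with LIF over a layer of mouse embryonic fibroblasts (feeder cells), and were Tet2 KO or wild type. RNA bisulfite sequencing gave 2 replicates of each genotype, from poly(A)-selected RNA that was also depleted of ribosomal RNA. For RNA turnover, cells received 5 µg/ml of actinomycin D, which stops transcription, and 1 RNA-seq library of each genotype was made at each of 0, 3 and 6 h. The labels do not say which piece of Tet2 was deleted, how many clones were used, or whether replicates were separate cultures, so p-values measure only how these samples vary, and part of that may be technical. Tet2 itself had 23.0, 11.2 and 10.1 RPKM (reads per kilobase of transcript, scaled to the reads of the library) at 0, 3 and 6 h in Tet2 KO cells, against 23.7, 17.9 and 12.5 RPKM in wild type cells, and a value over the whole locus does not check a deletion of unknown extent. Of 10 stem cell markers 8 were matched, with summed levels of 1009 to 1136 RPKM in Tet2 KO libraries and 850 to 1188 RPKM in wild type libraries. All 12 feeder markers were detected too, summing to 535 to 818 RPKM in Tet2 KO libraries and 610 to 940 RPKM in wild type libraries. RNA of feeder marker genes was therefore present in the libraries of both genotypes. Which cells it came from, and the part of feeder RNA in any site, were not tested.

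In mammalian messenger RNA m5C is known to be written mainly by NSUN2 and NSUN6, enzymes that recognise sequence and structure around the target cytosine. TET2 is a dioxygenase that oxidises 5-methylcytosine in DNA and in RNA. Bisulfite converts cytosine to uracil and leaves m5C, so a cytosine that is still read as C is scored as methylated. A cytosine in tightly folded RNA can also escape conversion, and then reads the same way.

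The bases around clustered sites could be read where they lay in the RefSeq windows around gene starts, of 250 bases before and 50 after, on build GRCm38.p6. These windows held 17 clustered and 127 isolated positions, and the listed base was a cytosine in all 144. The stretches below show the spacing of paired sites and the bases between them. Each is written 5′ to 3′ on the strand of the sites, in lower case, with the listed clustered cytosines in capitals.
Topbp1, first cluster, chr9:103305279-103305308, plus strand: gctgcgcgcCgggctggcgCccgaccccag
Topbp1, second cluster, chr9:103305318-103305347, plus strand: tgccggccgcgCgcccccCgacttggtgcc
Ei24, chr9:36797287-36797316, minus strand: gctctccgagCgcccgggCggagcgggcag
Bptf, chr11:107132098-107132127, minus strand: gaaacaagatggcggctgCaggcgatcCgg
Rian, chr12:109603965-109603994, plus strand: gggggctggtgattcctgagggagccCtgc
Casz1, chr4:148952407-148952436, plus strand: gaagaggacgaCgacgaCgaggatgatgat
upstream of Ube2r2, first cluster, chr4:41135861-41135890, plus strand: gaggagggccCgggccggcCcgagtcgtga
upstream of Ube2r2, second cluster, chr4:41135911-41135940, plus strand: gcccgcgggCcgtctggggCctggtccggc
upstream of C1galt1, chr6:7845171-7845200, plus strand: gcccgaggcgcCcggggCgggccagcgccg
The Rian stretch holds 1 of the 2 sites of its cluster. The Casz1 stretch comes from the window of Gm13205, a gene annotated on the other strand. Both clusters upstream of Ube2r2 and the cluster upstream of C1galt1 lie outside the annotated span of any gene. Each stretch holds 4 to 15 cytosines, and apart from the capitals none of them was listed in either table.

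The surroundings were rich in G and C. Over the 10 bases on each side, clustered sites had a median GC share of 85.0% (55.0% to 95%, n = 15 with complete flanks), against 80.0% for isolated sites in the windows (25% to 100%, n = 115) and a mean of 56.7% for all cytosines of the windows. The letters CGGG, starting at the listed cytosine, began 3 of 15 clustered sites (20%) and 25 of 115 isolated sites (21.7%), against 1.91% of all cytosines there. CGGG was chosen after the sequences were seen. CNGGG, letters known from NSUN2 targets in mammals, began 1 clustered site (6.67%) and 13 isolated sites (11.3%), against 2.95% of all cytosines. CTCCA, known from NSUN6 targets, began no clustered and no isolated site, against 0.672% of all cytosines. At a share that low, finding none among so few sites does not show that these letters are missing. On either strand CGGG is held by 66.8% of all 32817 windows, CNGGG by 92.3% and CTCCA by 65%. A site that begins CGGGG counts for both CGGG and CNGGG. The listed sites outside these windows could not be read, so these shares describe gene starts only.

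The listed sites had a minimum distance. In neither table did 2 sites of the same strand lie closer than 6 nt, so every clustered pair was 6 to 10 nt apart. A distance of 6 nt was the most frequent, with 31 pairs in Tet2 KO and 24 pairs in wild type, against a mean of 14.5 and 11.75 pairs per nucleotide at 7 to 10 nt in the same tables. Distances of 1 to 5 nt appeared only when the tables were laid over each other. There were then 30 such pairs, 8 of them 1 nt apart. In all 30 pairs 1 position was listed in Tet2 KO only and the other in wild type only, and in 2 pairs a member of a cluster took part. The rule by which the authors listed sites is not known here. Whether that rule sets the empty range below 6 nt, the count at 6 nt or the listing of close positions in 1 table only was not tested. No cluster gained a member from the other strand.

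**Figure D1:**
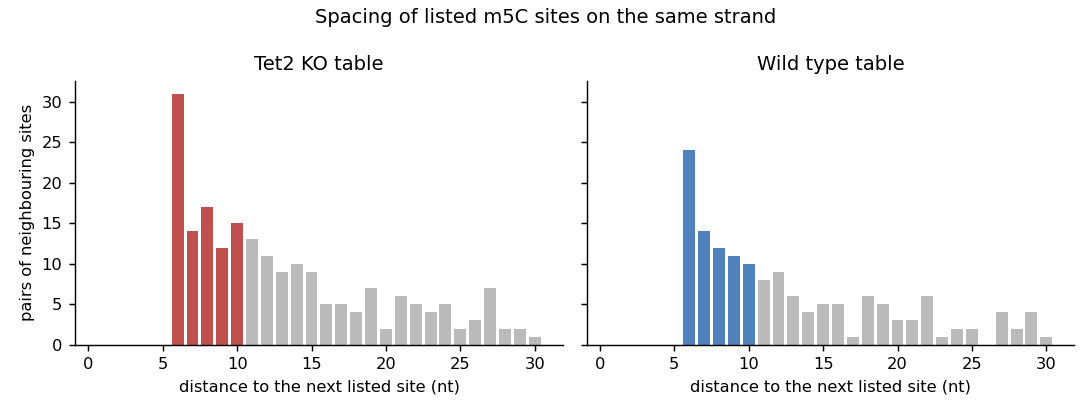
Number of pairs of neighbouring listed sites (vertical axis) by their distance in nt (horizontal axis), for the Tet2 KO table (left) and the wild type table (right); coloured bars are the distances of 10 nt or less that define clusters. Both tables are empty below 6 nt, and 6 nt is the tallest bar with 31 pairs in Tet2 KO and 24 in wild type.

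The limit of 10 nt cut through a gradual decline. At exactly 10 nt there were 15 pairs in Tet2 KO and 10 in wild type, with median levels of 0.187 and 0.189. Just outside, at 11 nt, there were 13 and 8 pairs, with median levels of 0.202 and 0.171. Counts and medians thus changed little across the limit.

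Clusters lay on all 19 autosomes, 63 on the plus and 71 on the minus strand. None lay on the X or Y chromosome, which held only 164 of the 7592 isolated positions. By position in the RefSeq table of GRCm38.p6, 130 clusters fell in 121 genes, among them 126 clusters in protein-coding genes, 2 in long noncoding RNAs and 2 in pseudogenes, and 4 clusters fell in no gene. The strand of the gene was known for 99 of these clusters and was that of the sites in all 99. Where genes overlapped, a gene on the strand of the site was taken first, so this agreement is partly set by the assignment. That table has no exon annotation, and whether a site is exonic, intronic or in a UTR is not stated.

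Clustered sites lay near gene starts. Among positions in a gene of known strand, 93 of 203 clustered positions (45.8%, 95% exact binomial interval 38.8% to 52.9%) were within 1000 nt of the annotated start, against 1059 of 5944 isolated positions (17.8%, 16.9% to 18.8%). Near the annotated end the order was the reverse, with 18 clustered positions (8.87%, 5.34% to 13.7%) against 1116 isolated positions (18.8%, 17.8% to 19.8%). The median clustered position lay 10.4% of the way along its gene, introns included, and the median isolated position 70.8%. All intervals here cover the counting of sites only, and neighbours in a cluster are not independent. With 1 position per cluster the share near the start was 45.5%.

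The lean towards gene starts was seen in both tables. Within 1000 nt of the start were 52 of 117 clustered sites in Tet2 KO (44.4%) and 47 of 105 in wild type (44.8%), against 19.3% and 16.9% of isolated sites. It was not limited to sites 10 nt apart or closer. Of positions whose nearest listed site was 11 to 20 nt away 41.7% were near a start (34.1% to 49.5%, n = 168), at 21 to 50 nt 40.2% (33.5% to 47.2%, n = 209), and at 51 to 200 nt 36.6% (31.7% to 41.8%, n = 363). Beyond 200 nt the share was 13.3% up to 1000 nt and 15% further away. In their share near the start, clustered positions and other positions with a neighbour up to 200 nt away thus had overlapping intervals.

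**Figure D2:**
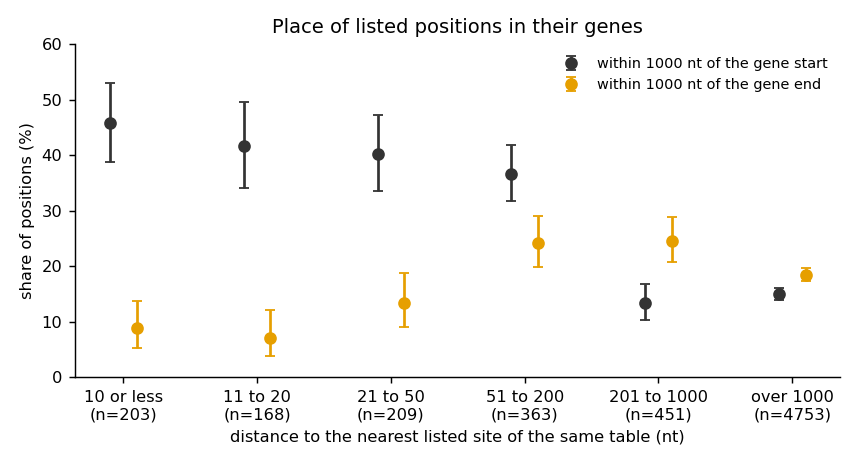
Share of listed positions in % (vertical axis) that lay within 1000 nt of the start or the end of their gene, by distance in nt to the nearest listed site of the same table (horizontal axis), with 95% exact binomial intervals over positions. The share near the start is 45.8% for clustered positions, is still 36.6% at 51 to 200 nt and is 15% for positions over 1000 nt from any other.

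Levels of clustered sites were higher than those of isolated sites in each of the 4 samples. A level is the deposited fraction of reads that kept the C. The median level of clustered sites was 0.182 and 0.164 in Tet2 KO replicates 1 and 2, against 0.147 and 0.142 for isolated sites. In wild type replicates 1 and 2 it was 0.179 and 0.162 for clustered sites, against 0.143 and 0.136 for isolated sites. Over all sites of a table, the distribution was shifted at both ends. A mean level below 0.15 was seen at 34.1% of clustered sites in Tet2 KO and 32.1% in wild type, against 51.6% and 54.8% of isolated sites. A mean level of at least 0.4 was reached by 26 of 170 clustered sites in Tet2 KO (15.3%) and 12 of 140 in wild type (8.57%), against 4.10% and 3.36% of isolated sites. The members were chosen from sites listed at 0.1 or more in these same samples, so these values are a description and were not tested.

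Over all listed sites, replicates of clustered sites were also further apart. The median absolute difference between replicates was 0.0495 at clustered and 0.0350 at isolated sites in Tet2 KO, and 0.0455 at clustered and 0.0360 at isolated sites in wild type. These medians compare sites of unequal level. Among sites with a mean level of at least 0.2, this order was kept in Tet2 KO and reversed in wild type. The medians there were 0.1 at clustered and 0.087 at isolated sites in Tet2 KO. In wild type they were 0.086 at clustered and 0.094 at isolated sites. Replicate differences at like levels were not tested. Neither table gives coverage, so the depth behind each level is unknown. The lowest level listed in any replicate was 0.1, so an unlisted position may have been lower than that or not covered. Median levels of clustered sites near gene starts and elsewhere were close. Clustered sites near a start had a median level of 0.166 in Tet2 KO, against 0.175 for clustered sites elsewhere in genes of known strand, and in wild type the medians were 0.171 near a start and 0.166 elsewhere. Near a start in wild type, 2 of 47 clustered sites (4.26%) and 28 of 528 isolated sites (5.30%) had a mean level of at least 0.4. Elsewhere in wild type these shares were 8.62% and 2.43%. In Tet2 KO they were 11.5% and 5.46% near a start, and 13.8% and 3.44% elsewhere.

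Among the 10 clusters of 3 positions, those with the highest mean over the cluster were in Pmepa1, Trim71, Mapk15 and Ppa2. Pmepa1 encodes a membrane protein that restrains TGF-beta signalling, and its cluster, on the minus strand of chromosome 2, was the only one with 3 positions all listed in both tables. At 173228059, the most 5′ site, levels were 0.769 and 0.429 in Tet2 KO, against 0.385 and 0.700 in wild type. At 173228052 they were 0.8 and 0.542 in Tet2 KO, against 0.450 and 0.500 in wild type. At 173228044 they were 0.833 and 0.593 in Tet2 KO, against 0.542 and 0.686 in wild type. The genotypes overlapped at the 5′ and 3′ sites. At the middle site both Tet2 KO replicates were above both wild type replicates.

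Trim71, an RNA-binding repressor of mRNAs in early embryos and stem cells, held a cluster on the minus strand of chromosome 9 with levels that changed steeply from site to site. At 114562715 levels were 0.333 and 0.133 in Tet2 KO, and the position was not listed in wild type. At 114562707, 8 nt further 3′, levels were 0.941 and 0.947 in Tet2 KO, the highest of all clustered sites listed in Tet2 KO only. At 114562701, another 6 nt further 3′, levels were 0.435 and 0.387 in Tet2 KO, against 0.429 and 0.500 in wild type. A site of nearly full level in both Tet2 KO replicates was thus unlisted in wild type. Its close neighbour 114562701 was listed in wild type, at levels near those that this neighbour had in Tet2 KO. The wild type table gives no value for 114562707, so no difference can be computed there. A second Trim71 cluster, at 114563568 and 114563561, was listed in Tet2 KO only, at levels of 0.1 to 0.250.

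Odc1, the rate-limiting enzyme of polyamine synthesis, had the same peaked pattern on the plus strand of chromosome 12. At 17545067 levels were 0.167 and 0.111 in Tet2 KO, at 17545075 they were 0.625 and 0.700, and at 17545081 they were 0.308 and 0.188. None of these positions was listed in wild type. Mapk15, an atypical MAP kinase, had 3 sites listed in Tet2 KO only, with replicate 1 above replicate 2 at each. Levels at 75996129, 75996137 and 75996143 of chromosome 15 were 0.636, 0.300 and 0.533 in replicate 1 and 0.308, 0.2 and 0.188 in replicate 2. Ppa2, the mitochondrial inorganic pyrophosphatase, had levels of 0.571 and 0.333 at 133310184 and of 0.545 and 0.364 at 133310192 of chromosome 3, both listed in Tet2 KO only. The 3′ site, 133310202, had 0.259 and 0.164 in Tet2 KO, against 0.389 and 0.222 in wild type. The replicates of each genotype overlapped those of the other at this site.

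The remaining clusters of 3 were lower. Ube2o, a ubiquitin-conjugating enzyme, and Sfrp1, a secreted antagonist of Wnt signalling, had 3 sites each that were listed in Tet2 KO only, with levels of 0.118 to 0.320 and 0.111 to 0.269. Psmg1, a chaperone of proteasome assembly, had 3 sites listed in wild type only, with levels of 0.103 to 0.185. In Tcf25, known for its part in ribosome quality control, listing shifted along 12 nt of chromosome 8. The site 123373987 was listed in Tet2 KO only, 123373993 in both tables and 123373999 in wild type only. The pseudogene Gm5786 had 2 sites in both tables and 1 in Tet2 KO only. Its reads could be shared with the parent gene or with other copies, so its levels are uncertain.

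**Figure D3:**
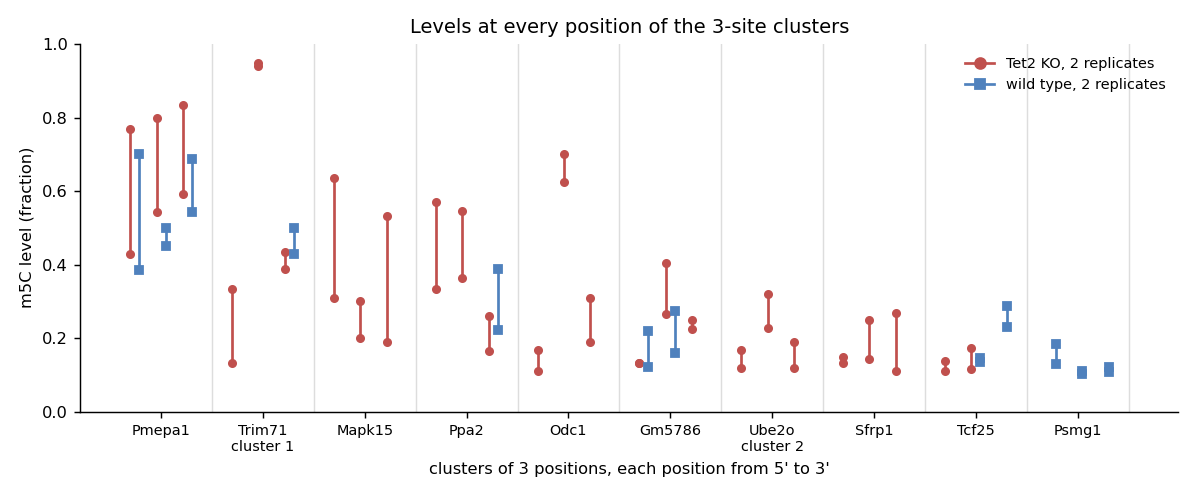
m5C level as a fraction (vertical axis) at each position of the 10 clusters with 3 positions, given 5′ to 3′ within a cluster (horizontal axis); red circles are the 2 Tet2 KO replicates and blue squares the 2 wild type replicates, joined by a line, and a missing symbol means that the position was not listed. Pmepa1 is complete in both genotypes, and the middle sites of Trim71 cluster 1 (0.941 and 0.947) and Odc1 (0.625 and 0.700) stand above their neighbours.

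Neighbours in a cluster shared part of their level. Over 89 neighbouring pairs in Tet2 KO the mean levels of the 5′ and the 3′ site had a Pearson correlation of 0.474 and a Spearman correlation of 0.511, and over 71 pairs in wild type these were 0.524 and 0.490. The sites of a pair share reads and RNA, so this is a description across pairs. The median absolute difference was 0.0640 in Tet2 KO and 0.0505 in wild type, with a median ratio of the higher to the lower level of 1.40 and 1.33. Those differences were larger than the median difference between replicates, of 0.0495 in Tet2 KO and 0.0455 in wild type. The differences between neighbours are between means of 2 replicates and those between replicates are between single values, so the measures are not alike. The same site was the higher one in both replicates in 61 of 89 pairs in Tet2 KO and in 44 of 71 pairs in wild type. The direction was mixed. The 5′ site was higher in 42 and the 3′ site in 46 pairs of Tet2 KO, and in 30 and 40 pairs of wild type.

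High levels stood alone in some pairs and side by side in others. In Tet2 KO 12 pairs had 1 site with a mean of at least 0.4 and 9 pairs had both, and in wild type 5 pairs had 1 and 4 had both. The middle sites of Odc1 and Trim71 enter more than 1 pair, so these counts of pairs are not counts of high sites without a high neighbour. Samd1, a chromatin protein that binds CpG islands, gives the steepest case among sites in both tables. Its site 83998328 on the plus strand of chromosome 8 had 0.962 and 0.949 in Tet2 KO, against 1.000 and 0.929 in wild type. Its neighbour 83998335, 7 nt further 3′, had 0.429 and 0.348 in Tet2 KO, against 0.375 and 0.250 in wild type. The step between these sites was therefore seen in all 4 samples. Hsf1, the heat shock transcription factor, had 0.913 and 0.833 in Tet2 KO, against 0.939 and 0.900 in wild type, at 76477621 of chromosome 15. Its neighbour 76477629 was listed in Tet2 KO only, at 0.194 and 0.164. In Sbf1, a myotubularin-related protein without phosphatase activity, both sites were listed in both tables. The 5′ site 89288566 of chromosome 15 had 0.833 and 0.816 in Tet2 KO, against 0.733 and 0.742 in wild type. The 3′ site 89288560 had 0.439 and 0.627 in Tet2 KO, against 0.606 and 0.500 in wild type.

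Most clusters met the rule in 1 table only. Most listed positions of any kind were in 1 table only too, with 47.5% of all 7870 listed in Tet2 KO only and 39.3% in wild type only. In 16 clusters at least 2 positions lay within 10 nt in both tables, in 65 this held in Tet2 KO only and in 53 in wild type only. Of the 278 positions 65 were listed in both tables, 121 in Tet2 KO only and 92 in wild type only. The shared part was 23.4% of clustered positions, against 12.8% of isolated positions and 13.2% of all 7870. A position listed in both tables had 2 chances to meet the rule, so the rule itself raises the shared part of clustered positions. All positions of a cluster were shared in 14 clusters, at least 1 in 49, and none in 85. A cluster found in 1 table was therefore usually not found as a cluster in the other.

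Clustered sites were listed again somewhat more often than isolated ones. Of clustered Tet2 KO sites 49 of 170 were also listed in wild type (28.8%, 22.1% to 36.3%), against 21.5% of isolated Tet2 KO sites (20.3% to 22.7%). Of clustered wild type sites 48 of 140 were also listed in Tet2 KO (34.3%, 26.5% to 42.8%), against 24.8% of isolated wild type sites (23.5% to 26.2%). Level was tied to relisting. Clustered Tet2 KO sites that were also listed in wild type had a median level of 0.223, against 0.170 for those that were not, and for wild type sites these medians were 0.217 and 0.158.

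At like levels clustered sites were listed again more often only in the lowest of 4 ranges. At mean levels of 0.1 to 0.15, 17.2% of clustered (8.59% to 29.4%, n = 58) and 9.49% of isolated Tet2 KO sites (8.34% to 10.7%) were also listed in wild type. In the same range 20% of clustered (9.58% to 34.6%, n = 45) and 10.9% of isolated wild type sites (9.61% to 12.3%) were also listed in Tet2 KO. In the other 3 ranges the share of clustered sites was the lower one in both tables. At 0.15 to 0.2, 19.0% of clustered and 22.0% of isolated Tet2 KO sites were also listed in wild type, and 21.6% of clustered and 25.4% of isolated wild type sites in Tet2 KO. At 0.2 to 0.4 these shares were 43.2% of clustered and 43.9% of isolated Tet2 KO sites, and 50% of clustered and 57.7% of isolated wild type sites. The gap was wider at levels of at least 0.4. There 12 of 26 clustered Tet2 KO sites (46.2%, 26.6% to 66.6%) and 65.1% of isolated ones (57.8% to 71.9%) were also listed in wild type, and 8 of 12 clustered wild type sites (66.7%, 34.9% to 90.1%) and 77.6% of isolated ones (69.6% to 84.4%) in Tet2 KO. The intervals of clustered and isolated sites overlapped in each of the 4 ranges in both tables. The shares over all levels thus compare sites of unequal level.

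**Figure D4:**
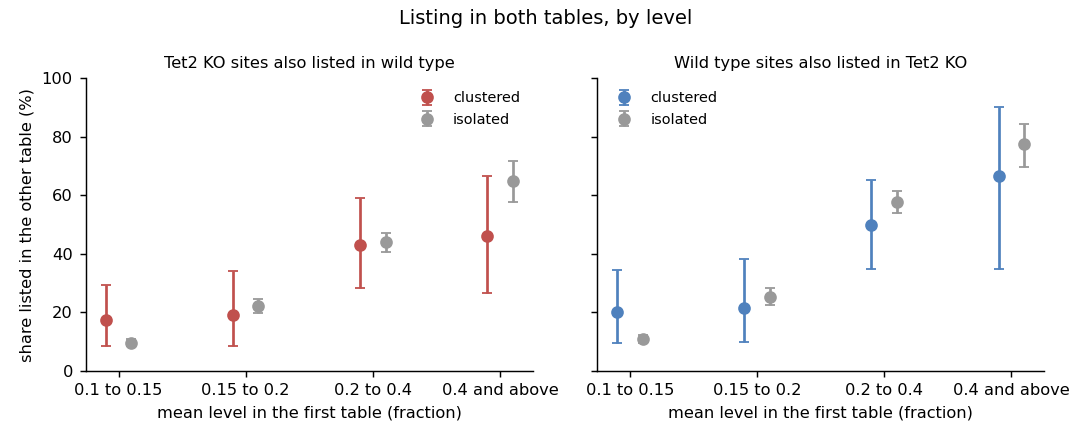
Share of sites in % (vertical axis) that were also listed in the other table, by mean level as a fraction (horizontal axis), for Tet2 KO sites (left) and wild type sites (right); coloured points are clustered and grey points isolated sites, with 95% exact binomial intervals over sites. The share rises with level in all 4 series, and at 0.4 and above the clustered Tet2 KO point (46.2%) lies under the isolated one (65.1%).

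Several clusters at high level were listed in 1 table only. After Trim71, the highest site listed in Tet2 KO only lay upstream of C1galt1, in the stretch printed above, where 7845188 had 0.727 and 0.8 and 7845182 had 0.500 and 0.700. By mean level the next after 7845188 were the middle site of Odc1, then Hnrnpul2, a nuclear RNA-binding protein, and Atp13a3, a P5-type ATPase of polyamine transport, all above 7845182. Hnrnpul2 had 0.647 and 0.645 at 8831595 of chromosome 19, and its neighbour 8831586 had 0.700 and 0.2. Atp13a3 had 0.643 and 0.625 at 30388419 of chromosome 16, and 0.273 in both replicates at 30388411. Of clustered sites with a mean of at least 0.4, 14 of 26 in Tet2 KO (53.8%) and 4 of 12 in wild type (33.3%) were not listed in the other table, against 66 of 189 isolated sites in Tet2 KO (34.9%) and 30 of 134 in wild type (22.4%).

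Among sites listed in wild type only the highest was in Clasrp, a serine- and arginine-rich splicing protein, with 0.714 and 0.727 at 19582473 of chromosome 7 and 0.312 and 0.267 at 19582480. Rian, an imprinted long noncoding RNA, had 0.750 and 0.524 at 109603991 of chromosome 12, the capital in its stretch above, and 0.500 and 0.410 at 109603998. Golph3, a Golgi protein that binds phosphoinositides, had 0.600 and 0.467 at 12321827 of chromosome 15. Prkar2a, a regulatory subunit of protein kinase A, had 0.4 and 0.370 at 108692292 and 0.4 and 0.333 at 108692286 of chromosome 9.

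Separate clusters, 2 each, were held by 9 genes, namely Trim71, Ube2o, Irf2bp2, Mri1, Ncl, Samd1, Taf10, Topbp1 and Zfp36l2. In Topbp1, an activator of the ATR checkpoint kinase, the 2 clusters printed above lie 31 nt apart and differ in listing. The first, at 103305288 and 103305298, had 0.231 and 0.261, and 0.154 and 0.156, in Tet2 KO and was not listed in wild type. The second, at 103305329 and 103305336, had 0.2 and 0.152, and 0.103 and 0.122, in wild type and was not listed in Tet2 KO. The clusters of Taf10, a subunit of TFIID and SAGA, also differed, with the one nearer the start listed in Tet2 KO only. Both clusters of Mri1, an enzyme of methionine salvage, were listed in wild type only, with 4 positions over 30 nt of chromosome 8 and levels of 0.105 to 0.235. Irf2bp2, a transcriptional corepressor, had 1 cluster listed in both tables and 1 in wild type only. At 126591466 of chromosome 8 it had 0.640 and 0.4 in Tet2 KO, against 0.588 and 0.459 in wild type, and these overlap. Ncl, the nucleolar protein nucleolin, had 3 positions in wild type only and 1, at 86350819 of chromosome 1, in both tables, with 0.115 and 0.125 in Tet2 KO, against 0.172 and 0.154 in wild type. Both wild type replicates were higher at that position. Zfp36l2, which binds AU-rich elements and promotes mRNA decay, had 3 of its 4 positions in wild type only.

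At the positions listed in both tables, no difference between genotypes passed the test. Levels were compared by limma on the arcsine square root scale over all 1039 shared positions, with Benjamini-Hochberg adjustment at 0.05. It called 0 of 65 clustered positions, where the background was 0.0% of all shared positions. At an unadjusted p below 0.05, 1 clustered position and 69 of all 1039 were found, and the lowest adjusted p of a clustered position was 0.705. The median level over the 65 positions was 0.234 and 0.2 in the Tet2 KO replicates, against 0.214 and 0.227 in the wild type replicates. The genotypes overlapped. The difference of Tet2 KO minus wild type means was positive at 29 and negative at 36 positions, with a median of -0.0090, against 0.0025 over the 974 isolated shared positions. That median depended on single replicates, with values of -0.0225 to 0.0080 when 1 was left out. With 2 replicates a side, an exact two-sided permutation test of 1 position cannot go below p = 0.333.

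Both Tet2 KO replicates were above both wild type replicates at 9 of the 65 positions, against 19.4% of all shared positions, and below them at 10, against 15.5% of all. Across the 65 positions the Tet2 KO and wild type means had a Pearson correlation of 0.924 and a Spearman correlation of 0.843, and across isolated shared positions 0.855 and 0.714. Positions of a cluster share reads, and the correlations are a description across sites.

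**Figure D5:**
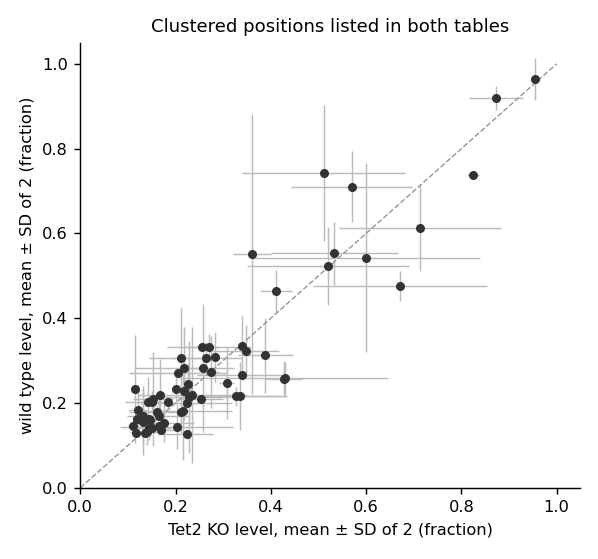
Mean m5C level as a fraction in Tet2 KO (horizontal axis) and wild type (vertical axis) at the 65 clustered positions listed in both tables; bars are the SD of 2 replicates and the dashed line marks equal levels. Points lie on both sides of the line, 29 with a higher mean in Tet2 KO and 36 with a lower one.

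The widest differences show how replicates limited the comparison. In Rlf, a zinc finger transcription factor, the site 121215001 of chromosome 4, minus strand, had 0.632 and 0.390 in Tet2 KO, against 0.857 and 0.630 in wild type. The genotypes touched, since the lower wild type replicate was below the higher Tet2 KO replicate. In Mnt, a Max-binding repressor of MYC targets, the site 74843180 of chromosome 11 had 0.333 and 0.389 in Tet2 KO, against 0.786 and 0.318 in wild type. One wild type replicate alone made that gap, and without it the fitted difference was 0.045 in the other direction. In Nudc, a regulator of dynein, the site 133545924 of chromosome 4 had 0.583 and 0.276 in Tet2 KO, against 0.231 and 0.286 in wild type, and the genotypes overlapped.

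Separated replicates were seen in Dnmt3l, Ing1, H2aj and at the middle site of Pmepa1. Dnmt3l, the catalytically inactive partner of the de novo DNA methyltransferases, had 0.4 and 0.455 in Tet2 KO, against 0.286 and 0.227 in wild type, at 78056192 of chromosome 10. Its unadjusted limma p was 0.0379 and its adjusted p 0.705. Its neighbour 78056186 was listed in Tet2 KO only, at 0.500 and 0.4. Ing1, a reader of histone H3 methylation, had 0.391 and 0.261 in Tet2 KO, against 0.231 and 0.2 in wild type, at 11556731 of chromosome 8. H2aj, a histone H2A variant, had 0.119 and 0.112 in Tet2 KO, against 0.324 and 0.144 in wild type, at 136808482 of chromosome 6. None of these differences passed the adjustment in limma.

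Over all genes with a listed site, 121 of 4739 (2.55%) held a cluster. Clusters were found in 2 of 15 pluripotency genes with any listed site, Tdgf1 and Trim71, in 1 of 4 DNA methylation genes, Dnmt3l, and in 1 of 11 histone genes, H2aj. They were found in 2 of 48 ribosomal protein genes, Rack1 and Rpl27a, and in 4 of 73 splicing and RNA-binding genes, Hnrnpa0, Hnrnpu, Hnrnpul2 and Rbm19. The lists are small, and a gene with more listed sites has more chances to hold a cluster, which was not tested. No cluster lay in the 33 translation factor genes or the 51 genes of the chromatin list (symbols that start with Smarc, Kmt, Kdm, Chd, Hdac or Ep). None lay in the 7 genes of RNA m5C enzymes and readers or the 6 genes with listed sites from a short list of named noncoding RNAs. Rian and AI506816, the long noncoding RNAs that held clusters, are not on that short list. Other genes of chromatin proteins did hold clusters, among them Arid1a, Bptf, Ino80b, Mtf2, Ing1 and Samd1, which were picked out after the clusters were seen. Tdgf1, a Nodal co-receptor, had 0.111 and 0.133, and 0.167 and 0.182, in Tet2 KO and was not listed in wild type. Hnrnpa0, which binds AU-rich RNA, had both sites in both tables and close agreement of all 4 samples. At 58127348 of chromosome 13 its levels were 0.157 and 0.173 in Tet2 KO, against 0.140 and 0.152 in wild type. At 58127338 they were 0.183 and 0.185 in Tet2 KO, against 0.213 and 0.192 in wild type.

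Genes with clusters were expressed above the median locus. Of the 121 genes, 98 were matched to a locus of 1 symbol in the RNA table. Their median level at 0 h was 14.6 RPKM in Tet2 KO and 13.2 RPKM in wild type, against 9.49 and 9.80 RPKM for genes with isolated sites only and 5.31 and 5.48 RPKM over all loci. The range was wide, with 0.749 to 788 RPKM in Tet2 KO and 0.540 to 665 RPKM in wild type. Listing a site needs reads, and its relation to expression was not tested.

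No gene with a cluster passed the test for a difference in RNA level between genotypes. With time as a block, limma on log2(RPKM + 1) called 0 of the 94 genes tested, where the background was 0.00844% of all 11855 loci rising and 0.0675% falling, and 12 of the 94 (12.8%) had an unadjusted p below 0.05, against 10.8% of all loci and 9.59% of genes with isolated sites only. The median difference of the 94 was 0.08 log2 units, against 0.04 over all loci. The smallest p belonged to Atxn2, an RNA-binding protein with a polyglutamine stretch, with 5.27, 4.04 and 1.87 RPKM at 0, 3 and 6 h in Tet2 KO, against 19.2, 11.5 and 3.59 RPKM in wild type. Its log2 difference was -1.22 (SE 0.26, limma adjusted p = 0.262). It was lower in Tet2 KO at all 3 times, and its cluster was listed in wild type only. Sfrp1, with its cluster of 3 listed in Tet2 KO only, had 16, 17.8 and 13.9 RPKM in Tet2 KO, against 9.31, 10.4 and 6.69 RPKM in wild type, a log2 difference of 0.80 (SE 0.18, limma adjusted p = 0.309). Polr3gl, a subunit of RNA polymerase III whose cluster was also listed in Tet2 KO only, was higher in Tet2 KO at all 3 times, with a log2 difference of 0.88 (SE 0.20, limma adjusted p = 0.309). Llgl2, a polarity protein, and Rbck1, a subunit of the linear ubiquitin ligase, had clusters listed in both tables, and log2 differences of -1.03 (SE 0.26, limma adjusted p = 0.316) and 0.65 (SE 0.17, limma adjusted p = 0.339). Differences in RNA level can change which sites have reads enough to be listed, and this was not tested.

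Over 6 h of actinomycin D, 14 of the 94 genes fell relative to the library and 0 rose. That is 14.9%, against a background of 7.91% of all loci falling and 0.118% rising, and 9.03% falling among genes with isolated sites only. The median slope was close to that of all loci, at -0.05 log2 units per hour for both. Among the genes that fell were Plekhf2, Rlf, Zfp36l2, Ing1, Rpusd2, Atxn2, Fam160b1, Sash1, Slc16a3, Arid1a, Chsy1, Puf60 and Topbp1. Rlf had 14.1, 5.56 and 1.84 RPKM at 0, 3 and 6 h in Tet2 KO and 12.6, 4.86 and 2.70 RPKM in wild type, a slope of -0.36 log2 units per hour (SE 0.05, limma adjusted p = 0.0084). Zfp36l2 had 7.24, 1.34 and 0.754 RPKM in Tet2 KO and 6.15, 1.57 and 0.888 RPKM in wild type, a slope of -0.35 (SE 0.06, limma adjusted p = 0.0169). Both genes fell in both genotypes.

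The count of 14 depended on the processing and on single libraries. It was 0 after quantile normalization and 0 without the wild type 6 h library, and 1 without the wild type 0 h, the wild type 3 h or the Tet2 KO 0 h library. RPKM are scaled within a library, so a slope is a change relative to the other RNA and not an absolute decay rate. Odc1, Hsf1, Samd1 and Tdgf1, whose sites are described above, did not pass in either test. Odc1 had 212, 244 and 196 RPKM in Tet2 KO, against 163, 184 and 133 RPKM in wild type (log2 difference 0.45, SE 0.15, limma adjusted p = 0.397). Samd1, with its near-full site in all 4 bisulfite samples, had 14.8, 14.2 and 12.5 RPKM in Tet2 KO, against 14.5, 15.5 and 10.8 RPKM in wild type.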

How the data were processed

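Per the file headers, each site table gives the m5C level of its sites as a fraction in 2 replicates, with chromosome, position and strand, as the authors deposited them; they give no coverage. The deposited RNA table gives RPKM per locus, per the file headers. Per the submitters' processing notes, Trimmomatic, Bowtie2 and Cufflinks were among the tools and GRCm38 and mm10 the builds. For versions, the bisulfite aligner, the caller, the listing rule, duplicate handling and strand use the sources used here give nothing, and each could change a level. The 8 immunoprecipitation and input samples of the 18 were not used here.

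Neighbours were sought within each table by chromosome and strand. Applied so, the rule gave 278 positions, and 368 over both tables together. The members, gene lists, limits and tests were chosen with earlier results of these data known. Genes were assigned by position in RefSeq (GRCm38.p6), with the strand from the RefSeq start windows where given. Among overlapping genes, those on the strand of the site came first, then those of unknown strand. Shared positions and RNA were tested by limma 3.58.1 in R 4.3.3 with Benjamini-Hochberg adjustment at 0.05. RNA was tested as log2(RPKM + 1) where a locus averaged 1 RPKM or more, and this scale understates fold changes at low levels. The genotype test had time as a block, and the slope test genotype as a factor. Both tests were also run on simulated data in which every locus had the same spread. That spread was not taken from these libraries, so the run does not show how the tests perform here. Shares have 95% exact (Clopper-Pearson) intervals. Counts used Python 3.11.15 and SciPy 1.17.1. Text names the 10 clusters with most positions, genes with 2 clusters, the highest sites by listing, the 10 widest shared differences (pseudogenes may be left out), RNA genes that passed or had the 5 smallest p, and list members. Some single-gene results that this rule names are not reported here. Alternatives are under the closing section.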

Additional observations from a re-analysis of the deposited data

How the results depend on the processing

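The number of clustered positions was 491 with neighbours within 20 nt and 64 among sites with a mean level of at least 0.2; a limit of 5 nt left none, and a limit of 0.1 in both replicates removed none. Among sites of at least 0.2, 45.2% of clustered Tet2 KO sites were also listed in wild type and 48.6% of clustered wild type sites in Tet2 KO, and the median levels were 0.429 and 0.309. Leaving out 1 replicate gave clustered medians of 0.164 to 0.182 in Tet2 KO and 0.162 to 0.179 in wild type, and median shared differences of -0.0225 to 0.0080. On the arcsine scale the difference at Mnt 74843180 ran from -0.446 to 0.045 with 1 replicate left out, turning without wild type replicate 1, and at Pmepa1 173228044 from -0.023 to 0.248, turning without Tet2 KO replicate 1. Same-numbered replicates did not deviate together (correlation -0.0034), and with the replicate number as a block 0 shared positions passed, as under every alternative run. The share of clustered positions near a gene start, with alternatives chosen after seeing the data, was 53.2% within 2000 nt and between 41.9% and 52.3% under the other 6. Loci that passed between genotypes numbered 9, and 4 with no filter, 15 at a mean RPKM of at least 5, 3 after quantile normalization, 5 without a trend and 0 to 12 with 1 library left out. Slopes that passed numbered 952, and 114 after quantile normalization and 0 to 1479 with 1 library left out; among genes with clusters they numbered 14, 0 and 0 to 20. The cause of these changes was not tested. Coverage is unknown, so no level has an interval of its own.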
